A study of Mus musculus with 6 samples.

Results

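Cytosolic ribosomal protein genes encode the proteins of the ribosome that works in the cytoplasm, named Rpl for the large subunit and Rps for the small one. Members were all genes in the count tables whose symbol is Rpl or Rps followed by a number, with at most a closing a, l, x or stalk suffix, together with Rpsa, Rplp0, Rplp1 and Rplp2. This gave 82 of 49212 genes, 50 of the large and 32 of the small subunit. Forms whose symbol closes in another way, such as Rps3a1, and the ribosome components Fau and Rack1 fall outside that rule. Of the 82 members, 79 had enough counts to be tested.

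The 6 bulk RNA libraries came from livers of C57BL/6J mice at an age of 15 weeks. In 3 of them the mice carried a pellet of dihydrotestosterone (DHT), an androgen, and the labels call them PCOS mice, after polycystic ovary syndrome. The other 3 came from mice given a placebo. The labels give no dose, sex, collection time, litter or sequencing batch, and do not say whether animals were pooled, so p-values measure the spread between these libraries.

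Ribosomal proteins fold around ribosomal RNA in a fixed stoichiometry, so cells make them in balanced amounts. Their mRNAs are among the most abundant of a dividing or growing cell and typically begin with a run of pyrimidines, the terminal oligopyrimidine (TOP) tract, which lets mTORC1 signalling through LARP1 set how strongly they are translated. In liver, an organ with a high output of secreted proteins, this machinery serves the making of plasma proteins.

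A run of pyrimidines at the annotated start was found in some members and not in others, and windows of differing run length are shown. RefSeq promoter windows of build GRCm38.p6 were found for 60 members, and the following 30-base windows run 5′ to 3′ on the gene's strand around the annotated start. Capitals mark the run of C and T that holds the start. In each window 14 bases precede the start, and a run can reach into them. The length of a run is therefore not the length of a transcribed TOP tract.
Rps18 (chr17:33955650-33955679, minus strand): acgtcacttccgCTCTCTCTTCCacaggag
Rplp2 (chr7:141447637-141447666, plus strand): gcgtcagcgTCTTCCTTTCgccgccggacg
Rpl28 (chr7:4792951-4792980, plus strand): cgcctctcgtgTCTCTCTTTCCgtctccgg
Rps6 (chr4:86857352-86857381, minus strand): agcggaagtcgggCCTCTTTTTCgtgacgc
Rps27 (chr3:90213633-90213662, minus strand): tttccgctttcgCTCCTTTCCggcggtgac
Rps28 (chr17:33824547-33824576, minus strand): gtaccgcgtgcggTCTCgcgagagcgaaag
Rpl12 (chr2:32961698-32961727, plus strand): gcggagcaggatccgtcttttcggctttcg
The run spans 11 bases in Rps18 and in Rpl28, 10 in Rplp2 and in Rps6, 9 in Rps27 and 4 in Rps28. Rpl12 has none at its annotated start, as have 33 of the 60 members. Only a run that holds the annotated start base was counted. In Rpl12 a run begins at the next base, so a count of none does not exclude a run close by. A run of at least 10 bases held the start in 11 of the 60 members (18.3%), against 634 of 27025 genes with a RefSeq window (2.35%). The letters CCGGAA, the core of sites for ETS factors, were searched on both strands of the whole 300-base window. They occurred in 30 of the 60 members (50%), against 15.2% of all windows, and on the other strand their letters TTCC can lie inside a pyrimidine run. These matches describe the sequence and are not measured sites.

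Before the members are compared, several facts of the libraries bear on them. Totals ran between 41336844 and 59257416 gene counts in DHT and between 52814320 and 60209462 in placebo libraries. Hepatocyte markers were at high levels in every library, with all 10 found and a sum of 84430 to 96913 counts-per-million (CPM) in DHT and 93012 to 138516 CPM in placebo. The Y-linked gene Ddx3y had 73.3, 74.1 and 79.2 CPM in DHT libraries 1 to 3, against 0.0997, 0.0545 and 0.0568 CPM in placebo libraries 1 to 3. Xist, the RNA of the inactive X chromosome, had 0.203, 0.116 and 0.556 CPM in DHT, against 41.9, 23.3 and 235 CPM in placebo. The Y-linked and Xist signals separate the libraries exactly as the labels do, with the Y-linked signal in DHT and Xist in placebo. Anything that goes with them, sex included, cannot be told apart from the DHT label in any comparison below. Mitochondrially encoded genes took 6.44, 8.47 and 8.0% of counts in DHT and 6.83, 4.83 and 3.23% in placebo. Placebo 3 thus had the lowest mitochondrial share and the highest Xist.

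The ribosomal protein genes were lower on average in DHT than in placebo livers, but the groups overlapped and placebo 3 stood far apart. The 82 genes together took 1.11, 1.25 and 1.77% of all gene counts in DHT 1, 2 and 3, against 2.12, 1.48 and 4.49% in placebo 1, 2 and 3. The means were 1.38 ± 0.35% in DHT and 2.70 ± 1.58% in placebo (SD, n = 3 each). DHT 3 stood above placebo 2, and placebo 3 stood above the other 5 libraries. Both subunits had this order of libraries. Large subunit genes took 0.668, 0.748 and 1.05% in DHT and 1.24, 0.882 and 2.5% in placebo. Small subunit genes took 0.440, 0.505 and 0.728% in DHT and 0.889, 0.601 and 1.98% in placebo. In bulk RNA, fewer cells of a type and less RNA per cell cannot be told apart.

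**Figure D1:**
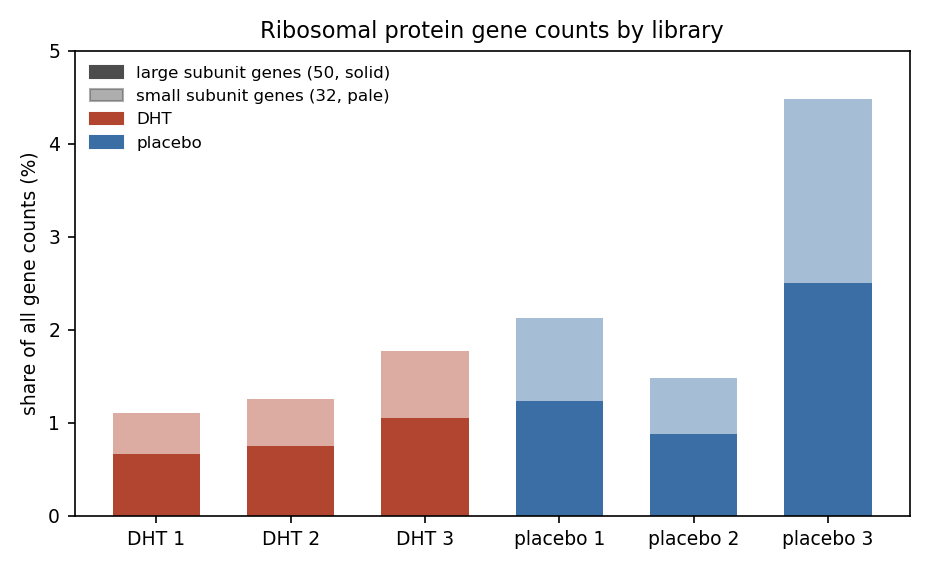
Share of all gene counts, in percent, taken by the 82 cytosolic ribosomal protein genes in each library, with large subunit genes solid and small subunit genes pale. The 3 DHT bars end at 1.11, 1.25 and 1.77%, and the placebo bars at 2.12, 1.48 and 4.49%.

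The order held gene by gene. Placebo 3 was the highest of the 6 libraries in CPM for 77 of the 79 tested members, and DHT 1 was the lowest for 77. DHT 3 lay above placebo 2 for 67 members and above placebo 1 for 12, whereas DHT 1 lay below both placebo 1 and placebo 2 for 78. DHT 2 lay below both for 68. Rpl4 had its lowest value in DHT 2, and Rps27l had its lowest in placebo 2.

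**Figure D2:**
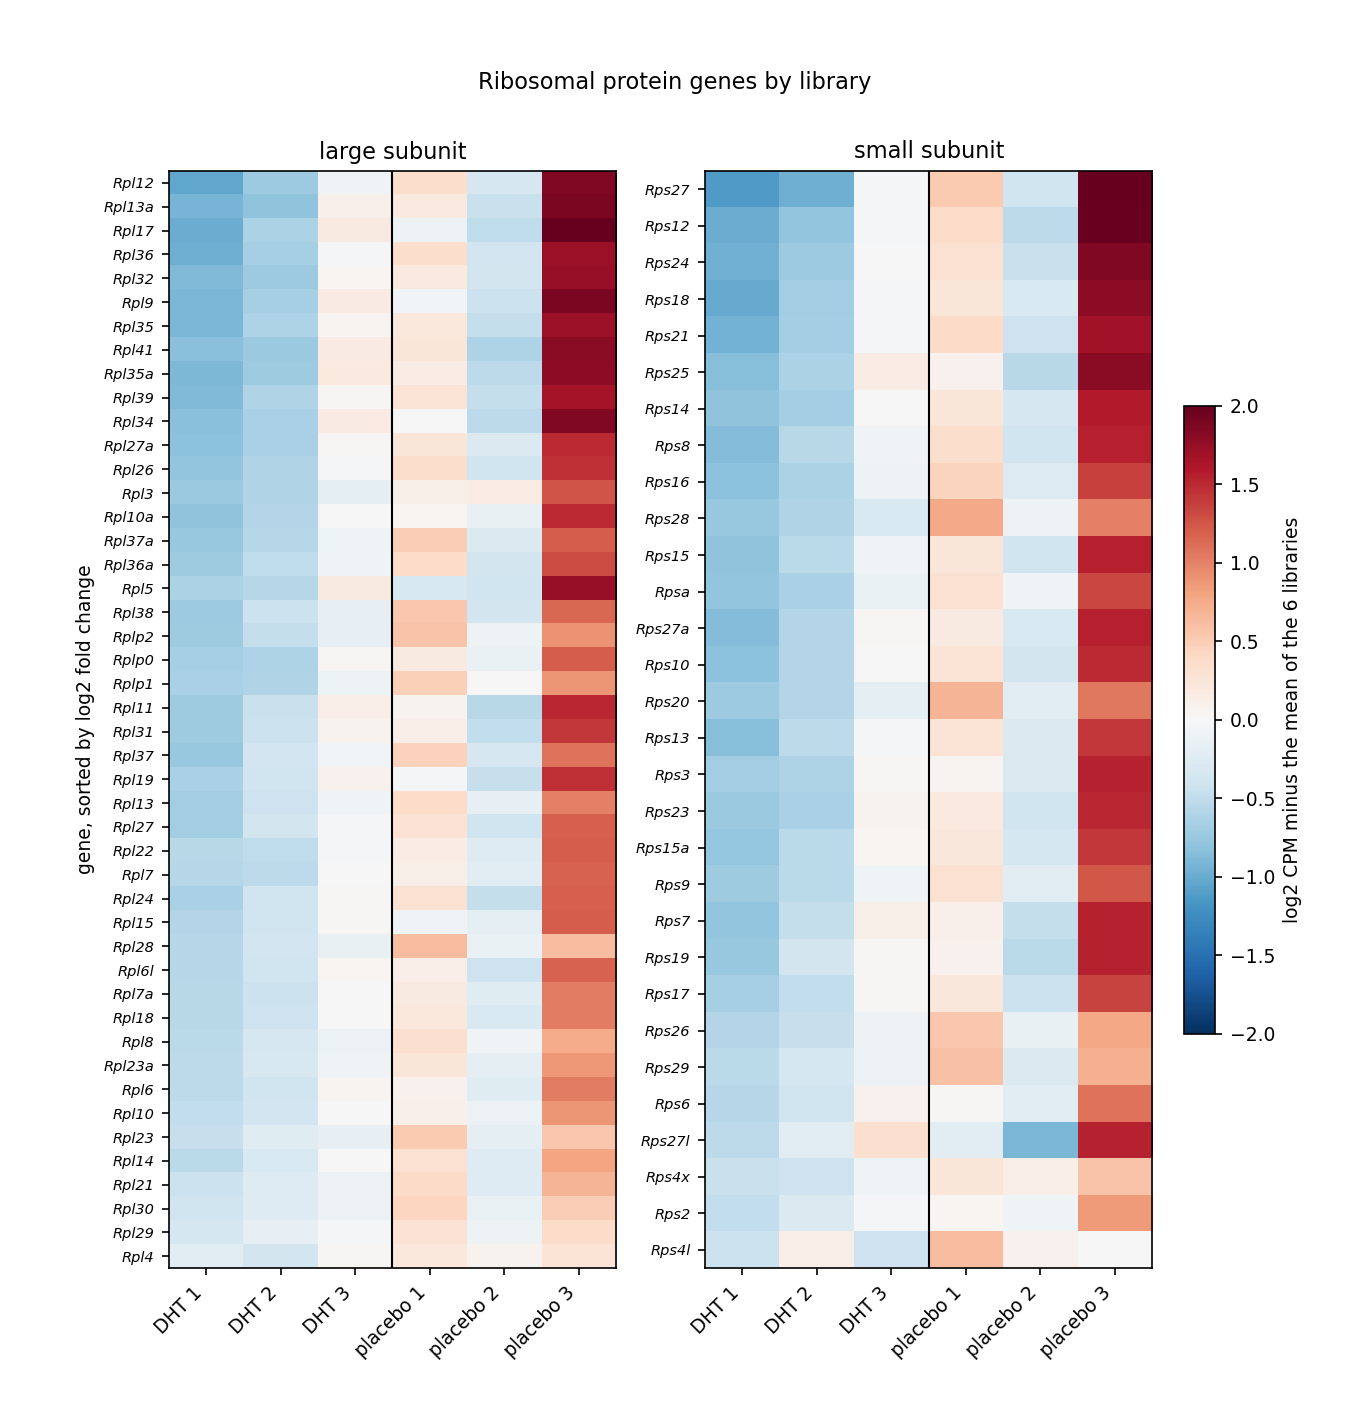
CPM on the log2 scale minus the mean of the 6 libraries, for 76 of the 79 tested members (rows, sorted by log2 fold change within each subunit) in 3 DHT and 3 placebo libraries (columns). Placebo 3 is the highest library for 74 of the rows and DHT 1 the lowest for 74.

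No single member passed the test. In edgeR's quasi-likelihood test of DHT minus placebo, where p-values were adjusted over 15126 genes by Benjamini-Hochberg and a gene was called at an adjusted p under 0.05, 0 of 79 members were called, where 1.65% of all genes were called in either direction and 0.701% as lower. All 79 log2 fold changes were negative, from -1.90 (Rps27) to -0.55 (Rpl4), with a median of -1.19 against a median of -0.02 over all genes tested. Adjusted p-values ran from 0.100 for Rps28 to 0.528 for Rps27l. An unadjusted p under 0.05 was reached by 64 members, all lower in DHT, where 8.52% of all genes reached it as lower. DESeq2 called 17 members lower (3.73% of all genes) and limma voom with sample quality weights called 3 (2.34%), Rps20 and Rps28 among them. With no filter on low counts edgeR called Rps28 alone (0.872%). Without composition scaling the median over all genes moved to 0.17 and that of the members to -0.99. Each of the 79 was still negative, and 31 had an unadjusted p under 0.05, where 5.04% of all genes did as lower.

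Libraries carry the numbers 1 to 3 in both groups, and over all genes the libraries numbered 3 deviated together (correlation 0.602). DHT 1 went more with placebo 2 (0.445) than with placebo 1 (0.246). DHT 2 went more with placebo 1 (0.287) than with placebo 2 (0.145). Pairing by number is therefore not given by the data for numbers 1 and 2, nor by the labels. With the library number as a block in the same edgeR test, 57 of 79 members fell in DHT, where 5.28% of all genes were called lower. With it 0 rose. The median log2 fold change of the members was then -1.05. By subunit, 30 of 47 large and 27 of 32 small subunit genes were called, with medians of -1.10 and -1.27 without the block. Members not called with the block included Rpl5 (edgeR adjusted p = 0.0691) and Rpl11 (adjusted p = 0.0648), whose proteins bind MDM2 when ribosome assembly is disturbed. Rps6 (edgeR adjusted p = 0.0840), the ribosomal protein phosphorylated downstream of mTORC1, was not called either. These 3 were picked for their roles. Their log2 fold changes with the block, -0.86 for Rpl5, -0.88 for Rpl11 and -0.77 for Rps6, lay within the range of the members, -1.63 to -0.47.

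Without placebo 3 the difference was smaller. The median of the members became -0.57, against 0.0020 over all genes, and 78 of 79 remained negative. Only Rps28 was then called (log2 fold change -1.10 ± 0.27 SE, edgeR adjusted p = 0.0487), where 2.81% of all genes were called lower, and 28 members had an unadjusted p under 0.05, where 12% of all genes did as lower. Rps27l changed sign, with 0.24 (adjusted p = 0.670). With DHT 3 left out as well, the median was -0.81, 0 members were called, 69 had an unadjusted p under 0.05 and the lowest adjusted p was 0.0743, where 1.2% of all genes were called lower and 10.7% had an unadjusted p under 0.05 as lower. With the block that fit called 9 members (4.17%). Leaving out DHT 1, DHT 2, DHT 3, placebo 1 or placebo 2 in turn gave 0 called members, where 0.231, 0.205, 0.393, 0.323 and 0.332% of all genes were called lower. Without DHT 1 only 10 members had an unadjusted p under 0.05 (4.5% of all genes as lower), and without DHT 2 only 14 (5.1%).

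**Figure D3:**
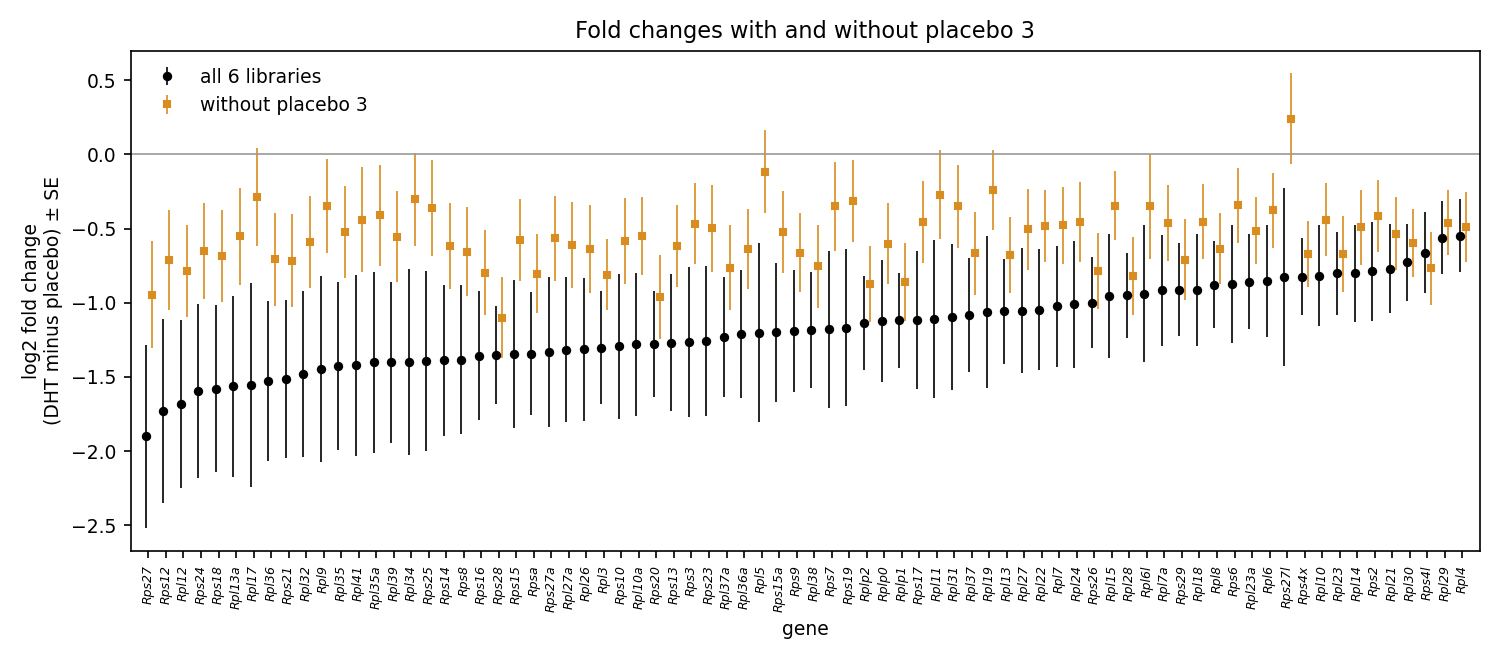
The log2 fold change, DHT minus placebo, with its SE for 76 of the 79 tested members, from the edgeR fit of all 6 libraries (black circles) and of 5 libraries without placebo 3 (orange squares). With all libraries the values run from -1.90 to -0.55, and without placebo 3 from -1.10 to 0.24.

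Among small subunit genes, Rps27, which encodes a zinc-finger protein of the small subunit, had the lowest log2 fold change. Rps27 (chr3:90212522-90213651) had 72.8, 81.9 and 155.7 CPM in DHT and 230.7, 122.2 and 654.1 CPM in placebo. DHT 3 exceeded placebo 2, so the groups overlapped. Its log2 fold change was -1.90 ± 0.62 (SE, edgeR adjusted p = 0.198), -1.63 with the block (adjusted p = 0.000144) and -0.94 without placebo 3 (adjusted p = 0.157). Rps12 (chr10:23785211-23787195) had 119.8, 138.1 and 232.7 CPM in DHT and 308.0, 166.6 and 938.7 CPM in placebo. Rps24 (chr14:24490681-24496146), one of the genes mutated in Diamond-Blackfan anaemia, had 137.2, 159.9 and 264.8 CPM in DHT and 326.8, 194.8 and 956.8 CPM in placebo. Rps18 (chr17:33951999-33956001), a protein of the small subunit head, had 170.4, 209.7 and 336.1 CPM in DHT and 404.2, 274.9 and 1180 CPM in placebo. In each of these genes placebo 3 was several times as high as placebo 1 and placebo 2, and DHT 3 lay above placebo 2. Their log2 fold changes were -1.73 ± 0.62 for Rps12, -1.60 ± 0.59 for Rps24 and -1.58 ± 0.56 for Rps18, with adjusted p-values of 0.235, 0.243 and 0.233 (edgeR), and all of them fell with the block (highest adjusted p = 0.00356).

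Rps28 and Rpsa, also of the small subunit, had no overlap between groups. Rps28 (chr17:33819027-33824562), chosen here after its values were seen, had 80.9, 90.0 and 110.6 CPM in DHT and 230.4, 126.7 and 274.2 CPM in placebo. Its log2 fold change was -1.36 ± 0.33 (SE, edgeR adjusted p = 0.100), and -1.30 with the block (adjusted p = 0.00128). Rpsa (chr9:120127689-120132369), which encodes a small subunit protein known also as the laminin receptor, had 242.5, 265.7 and 380.7 CPM in DHT and 517.6, 396.5 and 1054 CPM in placebo. For Rpsa, DHT 3 came close to placebo 2. The log2 fold change of Rpsa was -1.35 ± 0.41 (edgeR adjusted p = 0.176), and -1.24 with the block (adjusted p = 0.00576).

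Among large subunit genes, Rpl12, whose protein lies at the base of the stalk, had the lowest log2 fold change. Rpl12 (chr2:32961559-32965345) had 101.7, 126.5 and 196.2 CPM in DHT and 267.0, 165.3 and 752.0 CPM in placebo. Its log2 fold change was -1.68 ± 0.57 (SE, edgeR adjusted p = 0.211), and -1.43 with the block (adjusted p = 0.00116). Rpl17, whose protein reaches into the peptide exit tunnel, had 147.5, 188.0 and 330.6 CPM in DHT and 271.6, 206.6 and 1218 CPM in placebo. DHT 3 lay above both placebo 1 and placebo 2 for Rpl17, whose log2 fold change was -1.56 ± 0.69 (adjusted p = 0.319 in edgeR) with all libraries and -0.29 without placebo 3. Rpl36 (chr17:56613395-56614243) had 82.1, 102.0 and 159.3 CPM in DHT and 207.0, 124.1 and 530.1 CPM in placebo. Rpl3 (chr15:80077794-80091868), a protein near the peptidyl transferase centre, had 176.7, 195.4 and 258.3 CPM in DHT and 321.5, 327.9 and 705.7 CPM in placebo, with no overlap. The log2 fold change of Rpl3 was -1.30 ± 0.38 (SE, edgeR adjusted p = 0.158), -1.21 with the block (adjusted p = 0.00518) and -0.81 without placebo 3 (adjusted p = 0.0831).

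The members with fold changes nearest 0 were Rpl4, Rpl29, Rps4l, Rpl30 and Rpl21. Rpl4 (chr9:64173375-64178666), which lines the peptide tunnel, had 379.9, 340.6 and 445.2 CPM in DHT and 507.2, 457.5 and 528.8 CPM in placebo. No DHT value of Rpl4 reached a placebo value, and placebo 3 hardly stood apart. Its log2 fold change was -0.55 ± 0.25 (SE, edgeR adjusted p = 0.326), -0.55 with the block (adjusted p = 0.259) and -0.49 without placebo 3. Rpl29 had 111.6, 126.5 and 139.1 CPM in DHT and 173.5, 132.4 and 182.5 CPM in placebo. Rpl30 had 107.3, 117.6 and 130.1 CPM in DHT and 189.5, 128.2 and 197.6 CPM in placebo. Rpl21 had 176.5, 199.6 and 219.9 CPM in DHT and 310.5, 199.4 and 380.5 CPM in placebo. In all 3 genes DHT 3 lay above placebo 2 in CPM, and for Rpl21 DHT 2 did too, by a small margin. After TMM scaling, which the fold changes use, the groups of these 3 genes did not overlap. None of Rpl21, Rpl29, Rpl30 and Rps4l was called with the block (lowest adjusted p = 0.0966, Rpl30).

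Across the members, 31 of 79 had all 3 DHT values below all 3 placebo values after TMM scaling, where 10.9% of all genes did, and 0 had them above. In CPM without that scaling 11 of 79 did, where 6.27% of all genes did. Overlaps stated for single members are in CPM, and those of Rplp0 and Rpl10, as of Rpl21, Rpl29 and Rpl30, were absent after TMM scaling. Among the 11 members without overlap in CPM were Rps28, Rpsa, Rpl3, Rplp2, Rplp1, Rpl28, Rpl8, Rps4x and Rpl4.

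The stalk of the large subunit, made of Rplp0 with copies of Rplp1 and Rplp2, recruits the GTPase factors of translation. Rplp1 (chr9:61913284-61914542) had the highest level per length among the members, 824 CPM per kb of exon over all libraries. By that length Rps12 followed with 667, Rpl17 with 508 and Rpl36 with 497. Per kb of GENCODE transcript Rplp1 was again highest with 824, but Rps18 had 767, Rpl10 640, Rps27 636 and Rpl17 297. The order below Rplp1 thus depends on the length used. Rplp1 had 242.3, 251.0 and 357.6 CPM in DHT and 531.6, 379.5 and 705.7 CPM in placebo. Rplp2 (chr7:141447370-141451585), whose start is printed above, had 94.5, 110.3 and 137.6 CPM in DHT and 227.9, 143.1 and 287.2 CPM in placebo. Neither gene overlapped between groups. Rplp0 (chr5:115559467-115563727) had 270.0, 280.9 and 436.7 CPM in DHT and 488.8, 394.1 and 992.5 CPM in placebo, with DHT 3 above placebo 2. The log2 fold changes were -1.12 ± 0.32 for Rplp1, -1.14 ± 0.32 for Rplp2 and -1.12 ± 0.41 for Rplp0 (SE, edgeR adjusted p = 0.151, 0.145 and 0.242). All 3 fell with the block (adjusted p = 0.0131 for Rplp1, 0.00760 for Rplp2 and 0.0230 for Rplp0).

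Rpl10, Rpl36a, Rpl39 and Rps4x are on the X chromosome, which also encodes Xist. Rps4x (chrX:102184941-102189394) had 196.3, 199.7 and 249.7 CPM in DHT and 313.6, 292.0 and 395.3 CPM in placebo, with no overlap. Rpl10 (chrX:74270812-74273135), which completes the large subunit late in its assembly, had 370.4, 397.5 and 524.8 CPM in DHT and 555.3, 477.5 and 957.7 CPM in placebo. Rpl36a had 69.2, 79.5 and 106.3 CPM in DHT and 146.9, 87.7 and 280.2 CPM in placebo. Rpl39, a small protein of the tunnel, had 72.3, 87.8 and 134.8 CPM in DHT and 160.2, 95.4 and 421.9 CPM in placebo. DHT 3 lay above placebo 2 for Rpl10, Rpl36a and Rpl39, and below it for Rps4x. The log2 fold changes were -0.82 for Rps4x, -0.82 for Rpl10, -1.21 for Rpl36a and -1.40 for Rpl39, within the range of the autosomal members. With the block Rpl36a (adjusted p = 0.00964) and Rpl39 (adjusted p = 0.00654) were called in edgeR, and Rps4x (0.0635) and Rpl10 (0.113) were not.

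Several members have paralogs of known tissue bias. Rpl10l, a testis retrogene copy of Rpl10, had 0 counts in every library, which allows up to 0.0197 CPM over the pooled DHT and 0.0179 CPM over the pooled placebo libraries at a limit of 3 counts. Rpl39l, known from testis, had 2 counts over the 3 DHT and 8 over the 3 placebo libraries. Rpl3l, known from heart and skeletal muscle, had 6 counts in DHT and 9 in placebo. These 3 genes were not tested. Their counterparts Rpl10, Rpl39 and Rpl3 were well expressed, at the CPM given above.

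Rps27l, which differs from Rps27 in a few residues and is a known p53 target, was the only tested member to change sign without placebo 3. Rps27l (chr9:66946086-66949516) had 153.9, 187.8 and 276.0 CPM in DHT and 191.3, 117.0 and 642.3 CPM in placebo. Every DHT library lay above placebo 2, and DHT 3 lay above placebo 1 as well. Its log2 fold change was -0.83 ± 0.60 (SE, edgeR adjusted p = 0.528), and -0.47 with the block (adjusted p = 0.388). Per kb of exon, the ratio of Rps27 to Rps27l was 0.370, 0.341 and 0.441 in DHT and 0.943, 0.817 and 0.797 in placebo. Being read within a library, this ratio does not depend on library scaling, and it separated the groups with placebo 3 lowest among the placebo libraries. Its level depends on the lengths used, 1043 exon bases for Rps27 and 816 for Rps27l, against GENCODE transcripts of 345 and 499 bases. The ratio therefore does not tell which paralog was the more abundant.

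Rpl22 and its paralog Rpl22l1, which falls outside the rule and is repressed by Rpl22 in mouse cells, also differed in proportion. Rpl22 had 94.5, 98.2 and 136.0 CPM in DHT and 155.0, 115.8 and 321.7 CPM in placebo (log2 fold change -1.05 ± 0.41, edgeR adjusted p = 0.267, and 0.0287 with the block). Rpl22l1 had 18.5, 21.1 and 37.5 CPM in DHT and 57.6, 41.8 and 179.0 CPM in placebo, with no overlap. The log2 fold change of Rpl22l1 was -2.06 ± 0.58 (edgeR adjusted p = 0.145), -1.82 with the block (adjusted p = 3.26e-06) and -1.13 without placebo 3 (adjusted p = 0.0592). Per kb of exon, the ratio of Rpl22 to Rpl22l1 was 3.49, 3.18 and 2.48 in DHT and 1.84, 1.89 and 1.23 in placebo. Rps4l, an autosomal relative of Rps4x, had 11.9, 17.6 and 12.1 CPM in DHT and 24.8, 17.1 and 16.1 CPM in placebo. It was the single tested member with placebo 3 below the other placebo libraries, and its ratio to Rps4x overlapped between groups.

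Members were high together in the libraries numbered 3. Placebo 3 over the mean of placebo 1 and 2 ran from 0.768 (Rps4l) to 5.09 (Rpl17), with a median of 2.46, against a median of 0.937 over all genes. DHT 3 over the mean of DHT 1 and 2 ran from 0.820 (Rps4l) to 2.01 (Rps27), with a median of 1.5, against 1.01 over all genes. Across the 79 members these ratios had a Pearson r of 0.936 and a Spearman rho of 0.940, and across 14723 genes 0.607 and 0.676. The points share their libraries, so these are descriptions. Between the libraries not numbered 3, the mean of DHT 1 and 2 over the mean of placebo 1 and 2 ran from 0.438 to 1.11 with a median of 0.641, and it had an r of 0.0253 with the placebo 3 ratio.

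**Figure D4:**
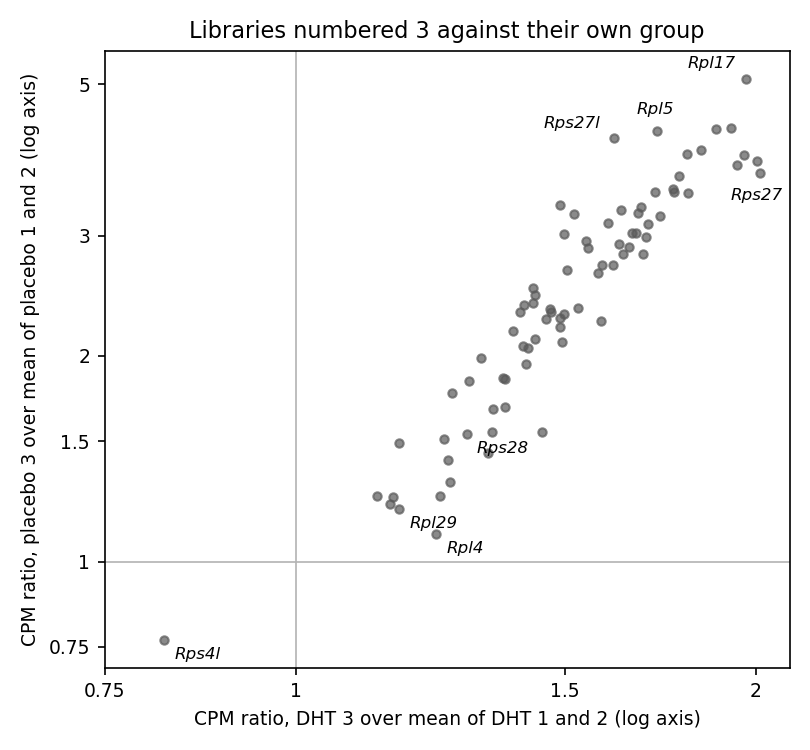
Each point is 1 of the 79 tested members, placed by its CPM in DHT 3 over the mean of DHT 1 and 2 (x, log axis) and in placebo 3 over the mean of placebo 1 and 2 (y, log axis). Rps4l lies below 1 on both axes at 0.820 and 0.768, Rpl17 is highest at 5.09, and across the points r is 0.936.

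Transcripts of members are short, with a median of 878 bases against 2775 over 14723 genes with a GENCODE transcript. Over all those genes, longer transcripts had lower placebo 3 ratios (Pearson r = -0.476), and within the members the relation was weak (r = -0.111). GC content had an r of -0.160 with the placebo 3 ratio among the members. Next, the trend of each library with exon length, as deposited with the counts, was removed, not that with transcript length. The median of the members was then -0.99, and edgeR called 0 of 79 (1.05% of all genes as lower). An unadjusted p under 0.05 was reached by 65 members (9.24% of all genes as lower). With the block 40 fell, where 4.87% of all genes were called lower. With the GC trend removed and the block 57 fell (5.45%). Named pseudogenes of ribosomal proteins, 276 in the files, summed to 51.7, 61.8 and 84.6 CPM in DHT and 98.5, 64.2 and 215.6 CPM in placebo, the same order of libraries as the members. How multi-mapping reads were counted is not given, so counts of members with close copies are uncertain.

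Genes around the ribosome were read from lists chosen for their roles, and none of their genes was called in the edgeR fit of all 6 libraries without the block. With the block 10.7% of all genes were called in either direction and 5.28% as lower. The lists then held 3 called genes among 6 ribosome components outside the rule, 2 among 7 elongation factors, 1 among 10 other TOP mRNAs and 2 among 9 snoRNA host RNAs, all lower. They held 2 lower among 48 ribosome biogenesis genes, 3 lower among 78 mitochondrial ribosomal proteins and 1 higher among 31 initiation factors. Of 32 genes of mTORC1 and MYC control 3 were called, of 12 p53 targets 3 and of 10 ribosome hibernation and rescue genes 1. The shares of the other TOP, biogenesis, mitochondrial, initiation, mTORC1 and MYC and hibernation lists were below the 10.7% of all genes in either direction. As lower alone, the other TOP list was above the 5.28% of all genes, but by 1 gene of 10. The 6 ribosome components outside the rule all had negative log2 fold changes, with a median of -1.04, and of -0.55 without placebo 3. Fau, which is cleaved to the small subunit protein eS30, had 162.5, 176.4 and 253.2 CPM in DHT and 365.6, 248.9 and 739.6 CPM in placebo. Rack1, a signalling scaffold on the small subunit, had 186.5, 206.9 and 309.7 CPM in DHT and 346.1, 277.7 and 864.3 CPM in placebo. For both, DHT 3 lay above placebo 2, and both fell with the block (edgeR adjusted p = 0.00376 for Fau and 0.0121 for Rack1).

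Factors that work on the ribosome had medians nearer 0 than the members. The 7 elongation factors were all negative, with a median of -0.80, and of -0.50 without placebo 3. Eef1d, an exchange factor subunit, had 68.1, 70.0 and 78.5 CPM in DHT and 136.2, 96.4 and 138.1 CPM in placebo, with no overlap (log2 fold change -0.96 ± 0.25, edgeR adjusted p = 0.113, 0.0150 with the block and 0.0499 without placebo 3). Eef1b2, of the same exchange complex, had -1.09 ± 0.43 (edgeR adjusted p = 0.275, and 0.0224 with the block). Of 10 other TOP mRNAs, 9 were negative with a median of -0.73, and the median was -0.28 without placebo 3. Npm1, a nucleolar chaperone on this list, fell with the block (log2 fold change -0.83, edgeR adjusted p = 0.0457). All 9 host RNAs of small nucleolar RNAs were negative with a median of -0.61, but the median was 0.21 without placebo 3. Snhg6, one of them, had 4.10, 4.64 and 10.4 CPM in DHT and 12.6, 7.89 and 41.0 CPM in placebo, with DHT 3 above placebo 2.

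The 31 initiation factors had a median of -0.40, and of -0.35 without placebo 3, and 26 were negative. The 1 called with the block was Eif4g3, a scaffold of cap-dependent initiation, which rose (log2 fold change 1.12, edgeR adjusted p = 0.00290). Of 48 ribosome biogenesis genes, 40 were negative with a median of -0.32, and the median was -0.31 without placebo 3. Fbl, the methyltransferase fibrillarin, had 26.2, 25.6 and 26.3 CPM in DHT and 45.3, 37.6 and 33.9 CPM in placebo, with no overlap and with placebo 3 the lowest of its group (log2 fold change -0.77 ± 0.22, edgeR adjusted p = 0.152, 0.0567 with the block and 0.0312 without placebo 3). The 78 mitochondrial ribosomal proteins, encoded in the nucleus and built into another ribosome, had a median of -0.42, and of -0.03 without placebo 3. Of the 78, 3 fell with the block, a share below the 5.28% of all genes, Mrpl23 among them (edgeR adjusted p = 0.0285).

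**Figure D5:**
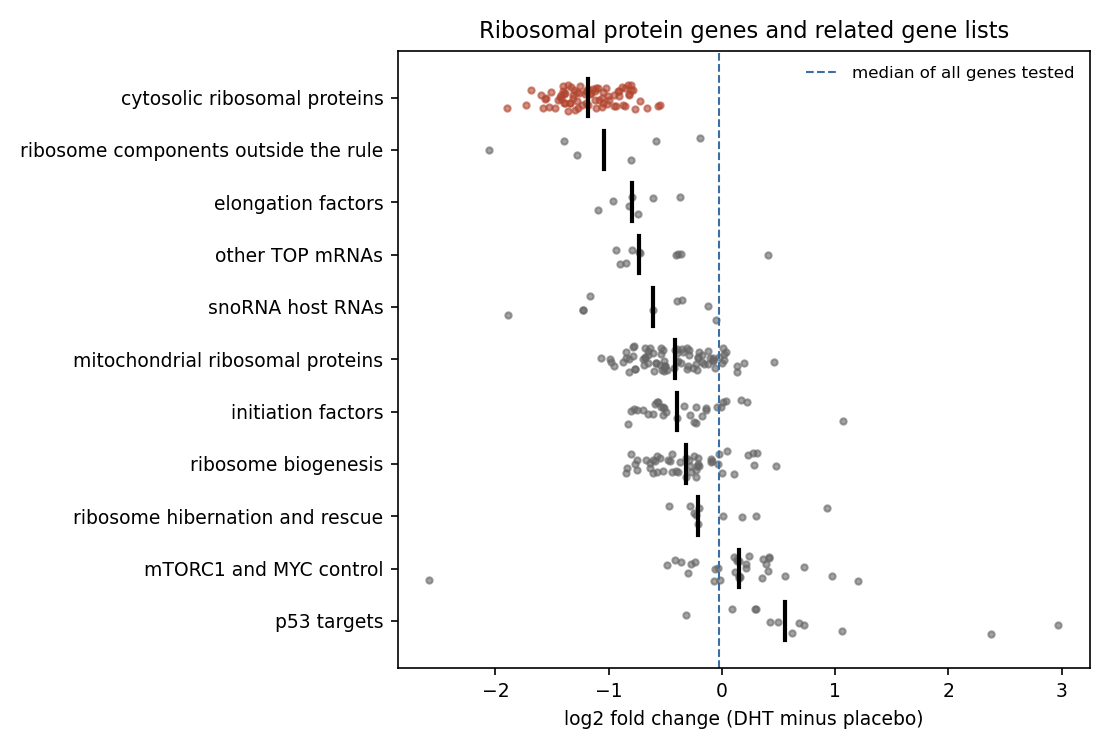
The log2 fold change, DHT minus placebo, of each tested gene (points) in the members and in lists of related genes, with the median of each list (bar) and the median of all genes tested (dashed line). The members have the lowest median, -1.19, and the mitochondrial ribosomal proteins have -0.42.

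Genes known to control ribosomal protein expression were mixed. The 32 genes of mTORC1 and MYC control had a median of 0.15. Myc, a transcription factor that drives ribosome production, had 1.64, 3.0 and 8.85 CPM in DHT and 12.2, 30.2 and 27.1 CPM in placebo, with no overlap (log2 fold change -2.58 ± 0.64, edgeR adjusted p = 0.105, and 1.88e-09 with the block). Mlst8, an mTOR complex subunit, had 7.58, 10.1 and 7.43 CPM in DHT and 3.37, 3.45 and 2.75 CPM in placebo (log2 fold change 1.20 ± 0.26, edgeR adjusted p = 0.0744, and 0.00574 with the block). The order of libraries in Myc was not that of the members, since placebo 2 was its highest. Among 12 p53 targets the median was 0.56. Cdkn1a, the cell-cycle inhibitor p21, had 16.6, 16.5 and 5.71 CPM in DHT and 2.86, 1.18 and 0.36 CPM in placebo, with no overlap and with library 3 lowest in each group (log2 fold change 2.97 ± 0.72, edgeR adjusted p = 0.0991, and 1.08e-10 with the block). Gdf15, a stress cytokine, had 14.9, 27.0 and 4.11 CPM in DHT and 5.17, 1.60 and 1.10 CPM in placebo, and rose with the block (edgeR adjusted p = 0.00200). Of 10 ribosome hibernation and rescue genes, Pelo, which splits stalled ribosomes, rose with the block (log2 fold change 0.97, edgeR adjusted p = 0.0135).

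Markers of other cells gave low or overlapping sums. The 6 T cell markers, from cells rich in ribosomal protein mRNA, summed to 1.60, 1.93 and 3.14 CPM in DHT and 4.60, 2.58 and 5.28 CPM in placebo. The 6 B cell markers summed to 17.5, 48.2 and 17.2 CPM in DHT and 24.6, 14.4 and 15.9 CPM in placebo. The 6 erythroid markers summed to 700.5, 982.6 and 1262 CPM in DHT and 1296, 955.6 and 1413 CPM in placebo, and 3 of 6 muscle markers were at 0 throughout. The T cell and erythroid sums were highest in placebo 3, but their genes were not alike. Cd3d, Cd3g and Trbc2 were highest in placebo 3, and Cd3e, Cd8a and Trac in placebo 1. Hbb-bs and Hbb-bt were highest in placebo 3, Hba-a1 and Hba-a2 in placebo 1, and Alas2 in DHT 3. The part of these cells in the members' values was not tested. None of the macrophage, neutrophil, endothelial, stellate and cholangiocyte sums was highest in placebo 3. Of 5 nuclear RNAs read for RNA quality, Xist alone was highest in placebo 3. Malat1, the most abundant of the 5 in every library but placebo 3, had 69.2, 113.2 and 177.1 CPM in DHT and 250.7, 35.5 and 74.6 CPM in placebo.

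Exons of counted neighbours overlap some members, and strand use in counting is not given. The overlap covers 66.2% of the exon length of Rpl35, 62.3% of Rpl23a, 47.0% of Rpl24, 35.4% of Rpl13a, 26.7% of Rpl5, 25.3% of Rpl31 and 24.8% of Rps25.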

How the data were processed

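Gene counts were deposited as 1 table per liver library, with raw whole-number counts of 49212 genes and their exon length, per the file headers. Per the submitters' processing notes, the tools were STAR 2.5.2b, featureCounts, Subread 1.5.2 and Trimmomatic 0.36, and the build was GRCm38. Their strand setting, multi-mapping and counting of reads or pairs are not given. CPM are counts-per-million of a library's gene counts, and 3 counts were worth 0.0498 to 0.0726 CPM, limits that cover counting error only.

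In R 4.3.3 with edgeR 4.0.16, DHT minus placebo was tested over 15126 genes left by filterByExpr, with TMM scaling (factors 0.921 to 1.08), robust glmQLFit, glmQLFTest and Benjamini-Hochberg adjustment. An SE is the log2 fold change over the square root of F. The procedure was run on simulated counts that held no library apart from its group and no pairing. That run therefore does not bear on placebo 3 or on the block. DESeq2 1.42.0, limma 3.58.1 voom, other scalings and filters, trends of length and GC, and leaving out libraries were alternatives. The GC trend and leaving out both libraries numbered 3 were added after seeing the data. Deviations from group means correlated at 0.246, 0.145 and 0.602 between libraries with the same number (titles in the labels), all over 0.1, so the number was also used as a block. DHT 1 correlated more with placebo 2 (0.445), DHT 2 more with placebo 1 (0.287), and the labels name no shared litter or batch. Those mismatched pairs passed 0.1 too, so that limit cannot establish pairing by number. Calls and adjusted p-values given with the block depend on that unstated pairing.

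No libraries were duplicates: chi-square over degrees of freedom was at least 104.564 between any 2 libraries, the lowest over 15036 genes. Members and lists were chosen with earlier results of these data known. Members given with each library's values are the 5 highest and 5 lowest fold changes and the 4 highest per kb of exon. Paralogs, X-linked and stalk genes and Rpsa are given in that way too. Apart from Rack1 and paralogs, genes named from the pathway lists are among the 2 with the smallest p in each. Not all of these are named, and some are given without each library's values. The Rpl36a and Rpl7 pairs of the closing section were chosen after values were seen. A few genes are counted but not reported by name here. Start windows and promoters are from RefSeq (GRCm38.p6), transcript lengths and GC from GENCODE. The length trend was removed by the exon lengths deposited with the counts.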

Additional observations from a re-analysis of the deposited data

How the results depend on the processing

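All 79 members were negative under each of 3 other scalings, other filters, DESeq2, voom and the block. They were also negative without any single library other than placebo 3. Rps27l changed sign without placebo 3 (0.24, with -1.24 without placebo 2 the lowest when 1 library was left out) and without both libraries numbered 3 with the block (0.017). Of 1092 values of 52 genes, those of the naming rule and 8 others named in the text, 919 kept direction and side of the threshold, 171 came to pass it and these 2 changed sign. Members called lower numbered 0 in the edgeR fit of all 6 libraries. They numbered 1 with no low-count filter, 57 with the block, 17 in DESeq2, 3 in voom, 40 with the length trend removed and the block, 57 with the GC trend removed and the block, and 9 without both libraries numbered 3 with the block. Leaving out 1 library gave 0 to 1. Members with an unadjusted p under 0.05 numbered 64, and 31 without composition scaling, 34 without the 20 most counted and mitochondrial genes, and 10 to 77 with 1 library left out, 10 without DHT 1, 14 without DHT 2 and 28 without placebo 3. Non-overlapping members, all lower, numbered 31 (10.9% of all genes), and 11 under each of those scalings (6.27 and 5.99%), 55 with the length trend removed (12.3%), 78 without DHT 3 (16.7%), 74 without placebo 2 (18.2%) and 31 without any other single library (12.9 to 20.1%). All genes called numbered 250, and 521 with no filter, 1621 with the block, 1062 in DESeq2, 744 in voom, 380 with the length trend removed, 1516 with the block too, 1592 with the GC trend removed and the block, 84 to 862 with 1 library left out, 448 without both libraries numbered 3 and 1371 with the block too. The all-gene median was -0.02, and 0.17 under both of those scalings (0.166 without composition scaling and 0.174 without the most counted genes). The mean share of members was 1.86% in DHT and 3.58% in placebo with the 20 most counted and mitochondrial genes left out of the total. The cause of these shifts was not tested. Each group held 3 libraries and placebo 3 stood apart, so these calls rest on few libraries with a wide spread. The 3 untested paralogs had at most 9 counts summed over either group, and the filter on low counts left them out.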

Other observations

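Other paralog ratios, read per kb of exon within each library and chosen after their values were seen, were not alike. The ratio of Rpl36a to Rpl36al was 0.458, 0.469 and 0.448 in DHT and 0.809, 0.654 and 0.678 in placebo, with no overlap. The ratio of Rpl7 to Rpl7l1, a nucleolar relative, was 3.35, 3.46 and 4.17 in DHT and 5.82, 5.44 and 7.63 in placebo, with no overlap. The ratio of Rpl6 to Rpl6l was 48.7, 47.5 and 48.1 in DHT and 46.1, 53.6 and 42.3 in placebo, and that of Rps4x to Rps4l was 9.54, 6.56 and 11.9 in DHT and 7.33, 9.89 and 14.2 in placebo. The groups overlapped for both, and reads shared between near-identical copies can move any of these ratios.

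Alas2, the first enzyme of haem synthesis in erythroid cells, went against the globin genes of its marker list. It had 107.5, 71.8 and 124.9 CPM in DHT and 28.4, 29.2 and 12.7 CPM in placebo, with no overlap (log2 fold change 1.93 ± 0.38, edgeR adjusted p = 0.0523, 2.69e-05 with the block and 0.0110 without placebo 3). None of the 4 globin genes was called in any of these fits.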
